A study of Mus musculus with 6 samples.

Results

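The genes described here are the mouse carriers of amino acids and of closely related small molecules whose symbols begin with Slc1a, Slc3a, Slc6a, Slc7a, Slc36a, Slc38a or Slc43a. They were chosen by symbol, 63 of the 18192 genes with a probe set of their own on the array, and each was represented by the brightest, averaged over the 6 arrays, of the probe sets annotated to no other gene. Of the 63, 21 were Slc6a genes, 16 Slc7a, 9 Slc38a, 7 Slc1a, 5 Slc36a, 3 Slc43a and 2 Slc3a. Not all of them carry amino acids: the Slc6a symbols include carriers of dopamine, serotonin, noradrenaline, GABA, taurine and creatine, and 3 symbols (Slc36a1os, Slc6a19os and Slc7a6os) name genes on the strand opposite a carrier. Only the mean level, over both groups together, chose a probe set. The family was assembled with earlier results of these data known, among them the rise of Slc6a20a, so that rise is given as a description.

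The series measured haematopoietic progenitors depleted of lineage-positive cells, from C57BL/6J mice whose Rosa26 locus drives the doxycycline-responsive transactivator rtTA. The cells were grown with murine stem cell factor, human Flt3 ligand and human interleukin-11 at 50 ng/ml each and murine interleukin-3 at 20 ng/ml, and the vector pRRL.TET.EVI1.IRES.EGFP was introduced, which expresses the transcription factor EVI1 together with the marker EGFP when doxycycline is present. Doxycycline (1 µg/ml) was given the next day, and after 20 hours cells with high EGFP (EGFP-positive, 3 arrays) and cells with low or no EGFP (EGFP-negative, 3 arrays) were sorted. The labels call the EGFP-negative samples untransduced, while the description of the design sorts both fractions from transduced cells, and a further field uses the word untransduced for the EGFP-positive samples too. The ages of the mice and whether replicates were separate cultures or animals are not given in the labels, so p-values reflect no more than the spread among these arrays, which may be technical. None of the 6 samples carried a vector without EVI1, so transduction, the sort by EGFP and EVI1 itself cannot be told apart, and in a sorted population fewer cells of a type and less RNA per cell cannot be told apart either.

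Amino acids cross membranes through carriers with different partners and driving forces. Many Slc1a and Slc38a proteins, and most Slc6a proteins, use the sodium gradient to concentrate their substrates. Some Slc36a proteins use protons, and Slc43a1 and Slc43a2 let large neutral amino acids equilibrate. Most Slc7a proteins either carry arginine and lysine on their own or are light chains that exchange amino acids only when joined to a Slc3a heavy chain. Blood progenitors that grow and divide depend on such carriers for protein synthesis, and maturing red cells take up glycine for haem.

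All values are deposited log2 expression values from RMA, so a difference of 1 is a doubling. The 6 arrays had medians of 5.11 to 5.14. Pearson's r across probe sets was at least 0.9946 within EGFP-negative arrays, at least 0.9886 within EGFP-positive arrays and 0.9683 to 0.9693 between groups. The 27 probe sets for bacterial poly-A transcripts, which have no mouse counterpart, read 1.13 to 3.61, and the highest of these values serves below as the background limit. The brightest probe set annotated to Mecom, the mouse gene of EVI1, had a mean of 8.26 ± 0.09 (SD, n = 3) without EGFP and of 7.97 ± 0.20 with it. It did not pass the test (limma, Benjamini-Hochberg adjusted p = 0.13). Whether it can also read the EVI1 transcript of the vector was not tested. The 3' signal exceeded the 5' signal for Actb by 0.76 to 0.86 on arrays of EGFP-negative cells and by 0.97 to 1.03 on the others, and for Gapdh by 0.80 to 0.84 and 1.03 to 1.10. This measure of RNA quality moved with the groups for every comparison below, and its part in the results was not tested.

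Slc6a20a, a carrier of proline and related imino acids, was the transporter gene with the largest difference, and its promoter is shown beside that of Slc6a20b, its neighbour in RefSeq order, which stayed within the bacterial control range. The promoters of Slc6a3, Slc43a1 and Slc1a4 are shown because these genes were also higher in EGFP-positive cells and their windows hold a searched motif. Each window is 300 bases from RefSeq (GRCm38.p6), 250 before to 50 after the annotated start, 5′ to 3′ on the gene's strand, and capitals mark a match to a motif named after the sequences.
Slc6a20a, chr9:123678783-123679082, minus strand: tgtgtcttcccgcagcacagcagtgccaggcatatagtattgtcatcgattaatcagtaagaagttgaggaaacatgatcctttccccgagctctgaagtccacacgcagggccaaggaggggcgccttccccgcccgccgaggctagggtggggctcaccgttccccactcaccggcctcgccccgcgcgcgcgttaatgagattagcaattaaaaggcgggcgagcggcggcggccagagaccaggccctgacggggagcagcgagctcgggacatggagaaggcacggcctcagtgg
Slc6a20b, chr9:123632489-123632788, minus strand: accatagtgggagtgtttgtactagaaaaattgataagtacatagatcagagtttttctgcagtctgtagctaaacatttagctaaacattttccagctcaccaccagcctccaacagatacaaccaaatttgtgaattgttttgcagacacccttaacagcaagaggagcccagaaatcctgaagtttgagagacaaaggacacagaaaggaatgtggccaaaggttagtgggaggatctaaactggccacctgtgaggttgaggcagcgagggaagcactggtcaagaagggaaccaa
Slc6a3, chr13:73536497-73536796, plus strand: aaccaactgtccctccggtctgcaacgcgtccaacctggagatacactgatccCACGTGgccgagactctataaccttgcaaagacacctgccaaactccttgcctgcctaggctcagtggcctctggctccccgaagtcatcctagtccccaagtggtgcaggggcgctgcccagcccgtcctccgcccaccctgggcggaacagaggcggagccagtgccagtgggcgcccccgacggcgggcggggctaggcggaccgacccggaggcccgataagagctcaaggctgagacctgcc
Slc43a1, chr2:84840073-84840372, plus strand: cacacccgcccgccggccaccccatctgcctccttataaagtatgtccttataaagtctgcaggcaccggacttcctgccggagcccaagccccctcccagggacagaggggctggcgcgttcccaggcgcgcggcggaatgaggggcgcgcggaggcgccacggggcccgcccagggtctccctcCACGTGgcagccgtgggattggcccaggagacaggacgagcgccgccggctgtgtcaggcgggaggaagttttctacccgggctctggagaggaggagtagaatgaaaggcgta
Slc1a4, chr11:20332664-20332963, minus strand: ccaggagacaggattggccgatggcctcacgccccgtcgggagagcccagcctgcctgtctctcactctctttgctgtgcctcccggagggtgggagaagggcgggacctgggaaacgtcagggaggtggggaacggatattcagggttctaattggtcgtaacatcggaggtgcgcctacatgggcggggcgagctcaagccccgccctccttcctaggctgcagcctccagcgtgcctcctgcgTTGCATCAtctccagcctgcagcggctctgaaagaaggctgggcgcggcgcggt

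The Slc6a20a window held 25 CpG dinucleotides at 62.3% G and C, and the Slc6a20b window 1 CpG at 44.0%. Over all 32851 windows of this length the medians were 7 CpG and 52.7%. RefSeq windows were found for 46 of the 63 transporter genes, in 67 windows. The motifs were searched on both strands, and none of the 3 contains another. The first motif was the core of the amino acid response element (TGATGNAA), through which ATF4 and C/EBP factors act on genes of amino acid supply. It was in 3.97% of all windows and in 5 of the 67 transporter windows. These belonged to 4 genes: Slc1a4, Slc7a11, Slc7a7 and Slc6a21. In Slc1a4 the match begins 4 bases before the start and reads TTGCATCA on the gene's strand, and Slc7a11 has matches that begin 47 and 66 bases before its start. The E-box bound by MYC and related factors (CACGTG) was in 7.15% of all windows and in 9 of the 67 transporter windows, from 9 genes. These were Slc1a6, Slc1a7, Slc36a1, Slc38a5, Slc38a7, Slc43a1, Slc6a3, Slc6a16 and Slc7a14. Of genes with a window that passed as higher, 3 of 14 held it (Slc38a7, Slc43a1 and Slc6a3). Of those that passed as lower, 2 of 7 did (Slc1a6 and Slc36a1). The E-box began 197 bases before the start in Slc6a3 and 64 bases in Slc43a1. The GATA-like motif of the first EVI1 zinc finger domain (AGATAA) was in 11.2% of all windows and in 5 of the 67 transporter windows. These belonged to Slc38a4, Slc3a1, Slc7a7 and Slc7a9. Neither Slc6a20 window held any of the 3. These matches describe the letters of the windows only.

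A carrier was counted as above background where all 3 arrays of a group exceeded the highest bacterial control value. In both groups this held for 36 of the 63 genes, and for 18 no array of either group exceeded it. The remaining 9 were mixed. Slc6a20a and Slc43a1 exceeded the limit on 3 of 3 EGFP-positive and 0 of 3 EGFP-negative arrays, and Slc6a4 on 0 and 3. Slc1a1 exceeded it on 3 EGFP-positive arrays and 1 EGFP-negative array, Slc1a7 on 3 and 2, Slc6a18 on 2 and 0, and Slc36a3 on 1 and 1. Slc6a17 and Slc36a1os exceeded it on 1 EGFP-negative array and no EGFP-positive array. The 18 genes under the limit on every array were Slc1a6, Slc38a4, Slc38a5, Slc6a5, Slc6a11, Slc6a14, Slc6a15, Slc6a16, Slc6a19, Slc6a19os, Slc6a20b, Slc6a21, Slc7a9, Slc7a10, Slc7a12, Slc7a13, Slc7a14 and Slc7a15, and no fold is given for them. Many of these are known from brain, kidney or gut, such as Slc6a19, the neutral amino acid carrier of gut and kidney, and Slc6a5 and Slc7a10, carriers of glycine and of small neutral amino acids in the nervous system.

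Of the 63 genes, 14 passed the test as higher and 11 as lower in EGFP-positive cells (limma, Benjamini-Hochberg adjusted p under 0.05 over all 18192 genes), which is 22.2% and 17.5%. Over all genes tested 16.0% passed as higher and 17.2% as lower, so the family as a whole was near the background of this comparison. Genes that passed with a fitted log2 difference of at least 1 in size numbered 7 higher and 3 lower, or 11.1% and 4.76%, against 5.95% and 6.24% of all genes. The median difference of the 63 genes was 0.028, beside 0.024 over all genes. The arrays of the groups did not overlap for 34 of the 63 (54.0%), and over all genes for 48.2%. The changes ran in both directions within most subfamilies. Slc1a had 2 of 7 higher and 2 lower, Slc3a 1 of 2 higher, Slc6a 4 of 21 higher and 1 lower, Slc7a 2 of 16 higher and 5 lower, Slc36a 2 of 5 lower, Slc38a 3 of 9 higher and 1 lower, and Slc43a 2 of 3 higher. The subfamily medians ran from -0.35 in Slc36a to 0.48 in Slc43a, with -0.098 in Slc7a and 0.18 in Slc6a.

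**Figure D1:**
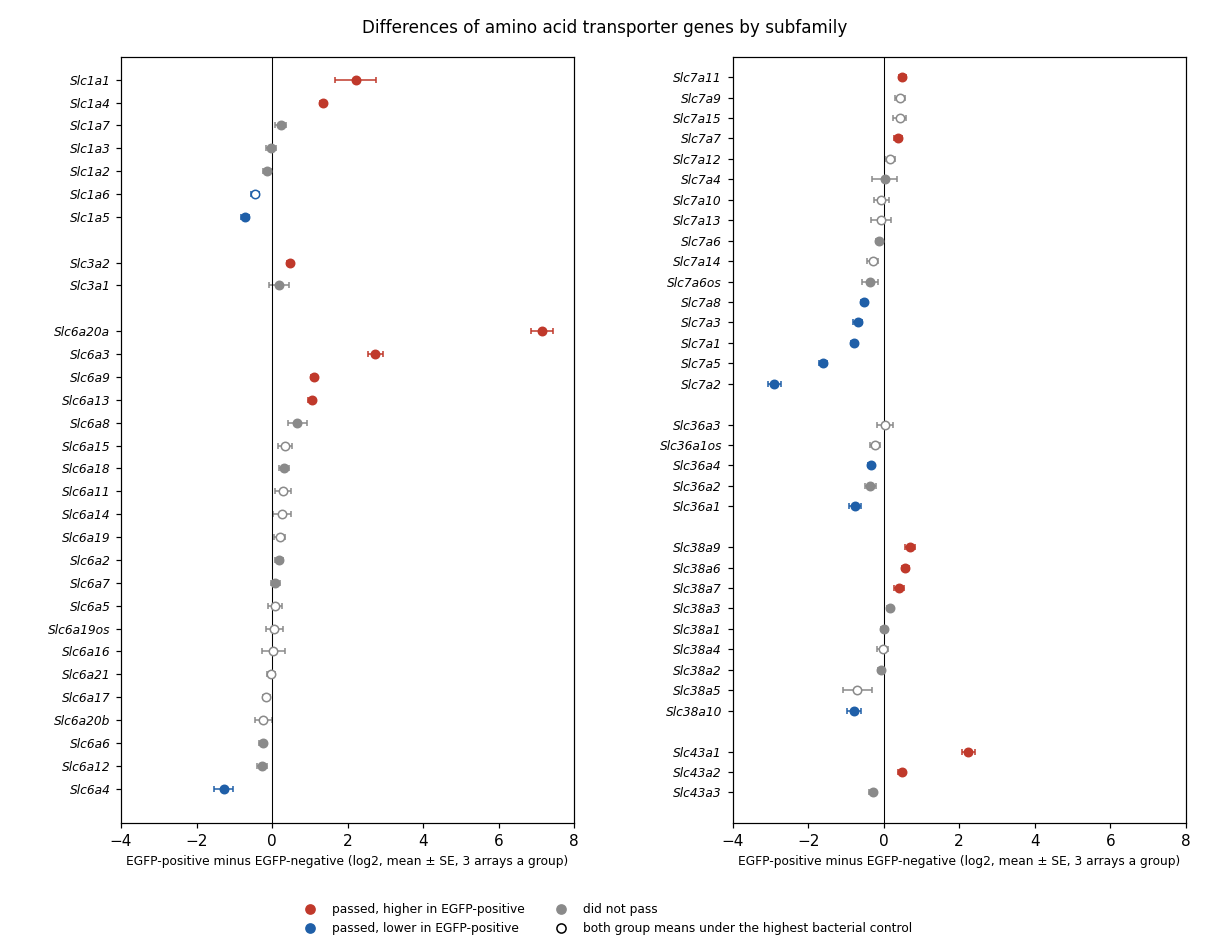
Log2 difference, EGFP-positive minus EGFP-negative, of each of the 63 genes by subfamily, with the standard error of the fit (3 arrays a group); red and blue points passed the test, and hollow points have both group means under the highest bacterial control value. Slc6a20a lies farthest to the right at 7.15 and Slc7a2 farthest to the left at -2.89.

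Marker genes of several blood lineages moved with the groups over the same arrays. Of the progenitor markers measured, Kit, Cd34, Flt3 and Myb were lower and Ptprc did not pass, all above the background limit. All 4 erythroid markers measured (Slc4a1, Epor, Klf1 and Gata1) were higher, with a level summed over the list (the sum of unlogged values) of 1208 to 1249 on EGFP-negative and 3825 to 3880 on EGFP-positive arrays, and 2 of 4 megakaryocyte markers were higher (1224 to 1287 and 2061 to 2082). Most of the erythroid sum in both groups came from Gata1, at 10.13 ± 0.01 and 11.51 ± 0.06 (SD, n = 3). Slc4a1 was under the limit on all 3 EGFP-negative arrays. The summed level fell for neutrophil markers (5 of 5 lower, 16257 to 16944 and 1428 to 1464), mast cell markers (4 of 5 lower, 9134 to 9467 and 2505 to 2735), eosinophil markers (3 of 4 lower, 1477 to 1674 and 204 to 325) and monocyte markers (3 of 3 lower, 2690 to 2897 and 797 to 813). Of the B cell markers Ms4a1 and Pax5 were under the limit on every array and of the T cell markers Cd3g. The B cell list had 1 of 3 lower, Ms4a1, with summed levels of 29 to 33 and 26 to 30. The T cell list had 1 of 4 lower, Cd3e (at least 3.75-fold, limma adjusted p = 0.0019), with summed levels of 93 to 106 on EGFP-negative and 52 to 64 on EGFP-positive arrays. All 4 epithelial markers were higher (3364 to 3655 and 7722 to 7868), and of 4 endothelial markers 3 were higher and 1 lower (1236 to 1389 and 1073 to 1602). Of these, epithelial Krt8 and endothelial Cdh5 and Kdr were under the limit on all 3 EGFP-negative arrays. Cdh5 was at least 1.30-fold and Kdr at least 1.68-fold higher, and Vwf rose 2.28-fold. Pecam1, the brightest endothelial marker on EGFP-negative arrays, fell from a mean of 9.97 to 9.10. The part of these shifts in the transporter values below was not tested.

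Among the Slc6a carriers, Slc6a20a went from background to a clear signal. It read 2.47, 3.42 and 3.58 on the EGFP-negative arrays, all under the background limit of 3.61, and 10.37, 10.29 and 10.26 on the EGFP-positive arrays. The groups lay far apart, and with the EGFP-negative arrays set to the limit the EGFP-positive mean was at least 104-fold higher. Its only probe set is annotated to that gene alone. Slc6a20b read 2.32 ± 0.31 (SD, n = 3) and 2.10 ± 0.33, under the limit at both of its probe sets, so only 1 of the 2 neighbouring copies gave a signal above the limit.

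Slc6a3, the dopamine transporter, rose 6.63-fold. It read 4.27, 4.23 and 4.30 on EGFP-negative arrays and 6.62, 6.95 and 7.43 on EGFP-positive ones (difference 2.73, SE 0.20, limma adjusted p = 0.00021). All 6 arrays were above the background limit, and the EGFP-negative values were close to it. Slc6a4, the serotonin transporter, moved the other way. Its EGFP-negative values of 4.43, 3.80 and 3.82 lay just above the limit and its EGFP-positive values of 2.96, 2.30 and 2.93 under it, so the level was at least 1.32-fold lower (fitted difference -1.28, limma adjusted p = 0.0095). Slc6a2, the noradrenaline transporter, read 3.85 ± 0.09 and 4.03 ± 0.14 (SD, n = 3) and did not pass.

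Slc6a9, the glycine transporter that feeds haem synthesis in red cell precursors, rose 2.16-fold. It read 12.20, 12.15 and 12.18 on EGFP-negative arrays and 13.21, 13.32 and 13.33 on EGFP-positive ones (difference 1.11, SE 0.08, limma adjusted p = 0.00017). Every EGFP-positive array was above every EGFP-negative array. The erythroid markers described above rose on the same arrays, and their part in the Slc6a9 difference was not tested. Slc6a13, a carrier of GABA and taurine, rose 2.07-fold, from 8.99, 9.02 and 9.12 to 10.07, 10.03 and 10.18 (difference 1.05, SE 0.09, limma adjusted p = 0.00030). Its neighbour Slc6a12, a carrier of betaine and GABA, read 7.51 ± 0.20 and 7.24 ± 0.15 (SD, n = 3) with overlapping arrays and did not pass. The taurine carrier Slc6a6 (-0.25, adjusted p = 0.072) and the creatine carrier Slc6a8 (0.67, adjusted p = 0.096) did not pass in the fit of all 6 arrays. Slc6a6 did pass as lower with a variance trend (limma adjusted p = 0.0046), with only the genes above the background limit (0.042) and with only the brighter genes (0.023), and a second of its probe sets passed as lower (-0.48, adjusted p = 0.020 over probe sets), while the mean of its 4 probe sets did not (-0.28, adjusted p = 0.096). Without EGFP-positive replicate 2, which read 6.11 beside 7.04 and 6.47, Slc6a8 passed (0.89, limma adjusted p = 0.040). Slc6a7, a proline transporter of nerve endings, had a difference of 0.09, and Slc6a17 and Slc6a18 had differences of -0.15 and 0.32 close to the limit. None of these 3 passed.

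**Figure D2:**
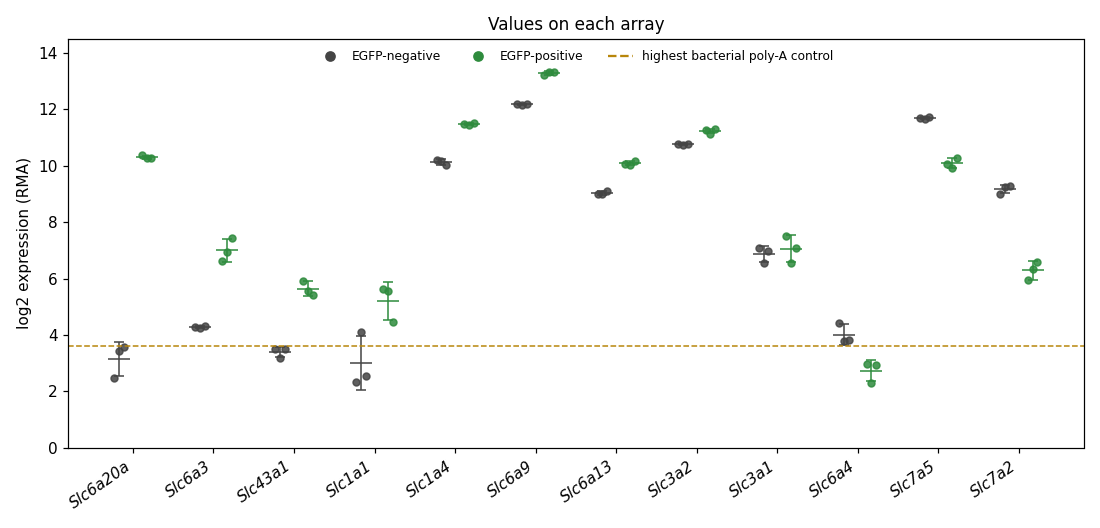
Log2 expression on each of the 6 arrays (points) with the mean and SD of each group (bars) for the transporter genes that passed with a fitted difference of at least 1 in size and for both Slc3a heavy chains; the dashed line is the highest bacterial poly-A control value, 3.61. Slc6a20a and Slc43a1 lie under the line on all 3 EGFP-negative arrays and above it on all 3 EGFP-positive arrays, and Slc3a1 overlaps between groups.

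The 5 Slc7a genes that fell encode 3 carriers of the cationic amino acid type and 2 light chains for neutral amino acids. Slc7a2, a carrier of arginine and other cationic amino acids, fell most, from 9.01, 9.26 and 9.29 to 5.95, 6.33 and 6.60 (difference -2.89, SE 0.18, limma adjusted p = 0.00012), which is 7.43-fold. All EGFP-positive arrays remained above the background limit. Averaging its 4 probe sets, 1 of them under the limit in both groups, gave a difference of -1.89, and the call held. The related cationic carriers Slc7a1 and Slc7a3 fell too. Slc7a1 went from 12.63 ± 0.07 to 11.85 ± 0.05 (SD, n = 3; limma adjusted p = 0.00073) and Slc7a3 from 6.99 ± 0.10 to 6.30 ± 0.15 (adjusted p = 0.0044). Slc7a4, which resembles them in sequence, read 6.55, 6.47 and 7.74 in EGFP-positive arrays and did not pass (0.03). The array of replicate 3 stood apart, and without EGFP-positive replicate 3 the difference was -0.38 and passed (limma adjusted p = 0.031).

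Slc7a5, the light chain of the main importer of leucine and other large neutral amino acids, fell 3.04-fold. It read 11.70, 11.65 and 11.72 on EGFP-negative arrays and 10.05, 9.93 and 10.28 on EGFP-positive ones (difference -1.61, SE 0.11, limma adjusted p = 0.00017). The groups did not overlap. Slc7a8, a second light chain for neutral amino acids, fell by 0.53 (adjusted p = 0.0033). Its heavy chain Slc3a2, shared by Slc7a5, Slc7a6, Slc7a7, Slc7a8, Slc7a10 and Slc7a11, went the other way. Slc3a2 read 10.79, 10.74 and 10.79 on EGFP-negative arrays and 11.28, 11.14 and 11.29 on EGFP-positive ones, a rise of 0.47 (SE 0.08, limma adjusted p = 0.0063). Slc7a11, the light chain of the exchanger that brings in cystine for glutathione, rose with it, from 8.04 ± 0.02 to 8.53 ± 0.12 (SD, n = 3; adjusted p = 0.0083). Among the light chains that bind Slc3a2 and exchange cationic for neutral amino acids, Slc7a6 did not pass (-0.12), and Slc7a7 passed as higher (0.37, adjusted p = 0.046) only while all 6 arrays were in the fit (leaving out any of them gave adjusted p of 0.051, without EGFP-negative replicate 1, to 0.14, without EGFP-negative replicate 2). At the more variable of its probe sets Slc7a7 missed the threshold as well (0.30, adjusted p = 0.25). The heavy chain Slc3a1, which pairs with Slc7a9 for cystine uptake in kidney, read 7.09, 6.56 and 6.97 on EGFP-negative arrays and 7.52, 6.56 and 7.08 on EGFP-positive ones, overlapped between groups and did not pass (0.18). Slc7a9 itself was under the limit on all 6 arrays. Slc7a6os, on the strand opposite Slc7a6, had a difference of -0.37 and did not pass. Whether the probe sets of such pairs read 1 strand only was not tested.

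Of the Slc1a genes that encode neutral amino acid carriers, Slc1a4, which exchanges alanine, serine and cysteine, rose 2.55-fold, from 10.22, 10.17 and 10.02 to 11.48, 11.45 and 11.53 (difference 1.35, SE 0.09, limma adjusted p = 0.00014). Slc1a5, the related glutamine carrier, fell from 8.70 ± 0.14 to 7.99 ± 0.12 (SD, n = 3; difference -0.71, adjusted p = 0.0039). Both groups of arrays were separate for each gene, in opposite directions. Among the glutamate carriers, Slc1a1 read 2.35, 4.10 and 2.55 on EGFP-negative arrays and 5.64, 5.55 and 4.45 on EGFP-positive ones. Its 6 arrays did not overlap between groups, the level was at least 2.72-fold higher, and the fitted difference of 2.22 (SE 0.54) passed with an adjusted p of 0.023. That call was lost without EGFP-negative replicate 1 (adjusted p = 0.074) or 3 (0.083) and without EGFP-positive replicate 1 (0.070) or 2 (0.068). Without EGFP-negative replicate 2, which read 4.10, the difference was 2.77. A second Slc1a1 probe set, above the limit on all 3 EGFP-negative arrays, had a difference of -0.02. Its EGFP-negative mean was 3.74 ± 0.11, beside 3.00 ± 0.96 (SD, n = 3) for the probe set used. The latter was thus the brightest over 6 arrays only through its EGFP-positive values. With the mean of all 3 Slc1a1 probe sets the difference was 1.03. Slc1a2 (-0.12), Slc1a3 (-0.02) and Slc1a7 (0.23), glutamate carriers of glia and retina, did not pass, and averaging their probe sets turned the first to 0.22 and the second to 0.05, again without passing. Slc1a6 passed as lower (-0.45, limma adjusted p = 0.022) with all 6 values under the limit, so no fold is given, and its call was lost without EGFP-negative replicate 1 (adjusted p = 0.061) or 2 (0.079) and without EGFP-positive replicate 1 (0.056) or 3 (0.054), as well as with a variance trend (0.065).

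The Slc38a genes that passed had differences under 1 in size. Slc38a9, the lysosomal carrier that reports arginine to the growth kinase complex mTORC1, rose from 9.10 ± 0.03 to 9.80 ± 0.24 (SD, n = 3; difference 0.70, limma adjusted p = 0.0085), and all 7 of its probe sets passed as higher, by 0.38 to 0.92. Slc38a6, a carrier of glutamine and glutamate, rose by 0.57 (adjusted p = 0.0037). Its second probe set, also above the limit, had a difference of 0.24 and did not pass (limma adjusted p = 0.34 over probe sets). Slc38a7, which exports glutamine and asparagine from lysosomes, passed at 0.41 (adjusted p = 0.045), a call that held without EGFP-positive replicate 1 and was lost when any of the other arrays was left out (adjusted p between 0.057, leaving out EGFP-negative replicate 3, and 0.14, leaving out EGFP-negative replicate 1). Slc38a10 fell by 0.78, from 10.81 ± 0.18 to 10.02 ± 0.30 (adjusted p = 0.017), with 5 of 6 probe sets above the limit passing as lower, by 0.77 to 0.98, and its call was lost without EGFP-negative replicate 3 (-0.68, adjusted p = 0.061). The broad carriers of small neutral amino acids Slc38a1 (0.01) and Slc38a2 (-0.08) did not pass at their brightest probe sets. A second Slc38a2 probe set passed as higher (0.80, limma adjusted p = 0.0077 over probe sets), and the mean of its 3 probe sets was 0.45 higher (adjusted p = 0.0085), so the direction for Slc38a2 turned with the probe set. Slc38a3, a glutamine carrier of liver and brain, had a difference of 0.17, and of -0.11 over the mean of its probe sets, and passed with neither. Slc38a4 (-0.02) and Slc38a5 (-0.70) were under the limit in both groups, and Slc38a5 passed only without EGFP-positive replicate 1 (-1.15, adjusted p = 0.0049).

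Both Slc36a carriers that passed were lower. Slc36a1, a proton-coupled carrier of proline, glycine and alanine at lysosomes and the cell surface, fell from 7.68 ± 0.03 to 6.91 ± 0.31 (SD, n = 3; difference -0.77, limma adjusted p = 0.013), and its neighbour Slc36a2 (-0.35) did not pass. Slc36a4 fell by 0.35 (adjusted p = 0.020), a call lost without EGFP-negative replicate 2 (adjusted p = 0.077) or 3 (0.066) or EGFP-positive replicate 1 (0.052). Slc36a3 (0.03) and Slc36a1os (-0.23) were near the limit and did not pass. Among the Slc43a carriers, Slc43a1 read 3.52, 3.18 and 3.50 in EGFP-negative arrays, under the limit, and 5.93, 5.56 and 5.43 in EGFP-positive arrays. The groups did not overlap, and the level of this facilitator of large neutral amino acids was at least 4.07-fold higher (fitted difference 2.24, SE 0.17, limma adjusted p = 0.00021). Slc43a2, a second facilitator of this kind, rose by 0.48 (adjusted p = 0.010). Slc43a3, which carries purine bases instead, had a difference of -0.30 (adjusted p = 0.072) and did not pass over all genes.

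Several genes could be read by more than 1 probe set, 32 of the 63, and for none of them did probe sets pass in opposite directions. The fit over all 45037 probe sets, in which 11.6% passed as higher and 12.6% as lower, gave larger changes at second probe sets of Slc6a9 (1.80) and Slc7a1 (-1.77) than at the brightest ones (1.11 and -0.79). All 3 Slc1a4 probe sets passed as higher, by 0.73 to 1.35, and both Slc7a11 probe sets, by 0.49 and 0.70. All 3 Slc7a2 probe sets above the limit passed as lower, with differences of -2.89 to -1.96. The probe sets that stand for Slc1a3, Slc38a1 and Slc7a4 are of types that can bind related transcripts.

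**Figure D3:**
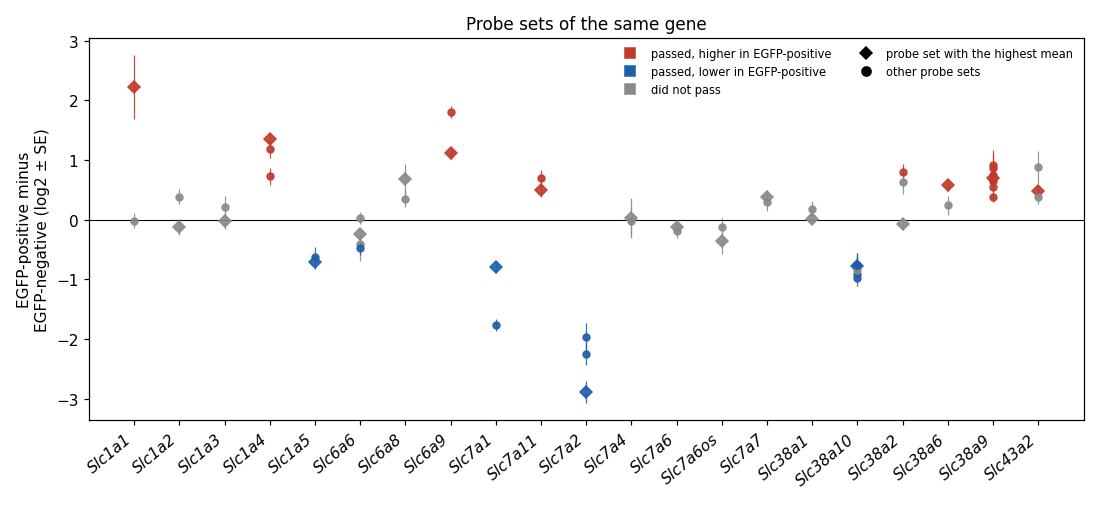
Log2 difference, EGFP-positive minus EGFP-negative, with SE for each probe set above the highest bacterial control value in a group, for transporter genes with more than 1 such probe set; diamonds are the probe sets with the highest mean, and red and blue passed over all probe sets. Slc7a2 and Slc7a1 are lower and Slc6a9 and Slc1a4 higher at every probe set drawn, while those of Slc1a1 and Slc38a2 differ from each other.

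Further amino acid genes were taken as 9 lists, and read against the same 16.0% and 17.2% of all genes. The lists held carriers of other families, partners of carriers, and genes of the starvation response, of sensing and of metabolism. Among carriers of other families, 4 of 18 rose and 4 fell. The mitochondrial aspartate-glutamate carriers split, Slc25a13 higher (1.17, adjusted p = 0.00074) and Slc25a12 lower (-0.95, adjusted p = 0.00042), the mitochondrial glutamate carrier Slc25a22 rose by 0.41, and Slc16a10, a carrier of aromatic amino acids, fell by 2.38, from 8.97 ± 0.06 to 6.59 ± 0.63 (SD, n = 3; limma adjusted p = 0.0017), or by 1.42 over the mean of its 4 probe sets. Of the carrier partners only Cltrn and Cd44 were measured here, and both fell (-0.64 and -0.39). Cltrn is the partner of Slc6a19 in kidney, and the protein Cd44 encodes stabilises the Slc7a11 exchanger.

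In the amino acid starvation response, 13 of 22 genes fell and 4 rose, with a median difference of -0.60 beside 0.024 over all genes. The falls included Atf4, its central transcription factor (-0.84, adjusted p = 0.00045), the serine and glycine synthesis genes Shmt2 (-2.15, adjusted p = 3.3e-05) and Psph (-1.65), and Asns, the asparagine synthetase (-1.17). The rises were led by Ppp1r15a, which restores translation after stress (1.52, limma adjusted p = 0.00013), and Ddit4, an inhibitor of mTORC1 (0.69). In the mTORC1 sensing list 5 of 22 rose and 3 fell. Rragd, a GTPase that brings mTORC1 to lysosomes, rose from 7.14 ± 0.03 to 9.87 ± 0.07 (SD, n = 3; 2.72, limma adjusted p = 1.9e-05), with 1.32 over the mean of its 3 probe sets, and Nprl3, of a complex that restrains that step, by 1.04. Castor2, a relative of the arginine sensor, fell by 1.11, with a difference of -0.62 over the mean of its 4 probe sets. Rptor, the mTORC1 scaffold, fell by 0.52. The Rptor call was lost without EGFP-negative replicate 2 (adjusted p = 0.058) or 3 (0.0501), and its direction turned with the most variable probe set (0.31, adjusted p = 0.63). Over the mean of its 3 probe sets the Rptor difference was -0.076 (adjusted p = 0.75).

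Of 9 proline genes, 1 rose and 2 fell. Aldh4a1, which degrades proline products, rose by 0.54, Aldh18a1, the first enzyme of proline synthesis, fell by 1.04, and P4ha2, a collagen prolyl hydroxylase, fell by 1.00. Each of these calls was lost with 1 array fewer: Aldh4a1 without any but EGFP-positive replicate 2 (adjusted p 0.083 to 0.13), Aldh18a1 likewise (0.057 to 0.070), and P4ha2 without EGFP-negative replicate 3 (0.066) or EGFP-positive replicate 1 (0.051) or 2 (0.052). Of 10 enzymes of glutamine, glutamate and aspartate, 6 fell and 1 rose. Cad, which starts pyrimidine synthesis from glutamine, fell by 1.81, with a difference of -1.36 over the mean of its 3 probe sets. Glul, the glutamine synthetase, rose by 0.24, a call lost without any 1 array (adjusted p 0.069 leaving out EGFP-positive replicate 3, and 0.14 leaving out EGFP-negative replicate 1). Of 7 branched-chain enzymes 4 fell and 1 rose: Bcat1, the cytosolic aminotransferase for leucine, isoleucine and valine, fell from 10.49 ± 0.05 to 6.90 ± 0.28 (SD, n = 3; -3.59, limma adjusted p = 3.7e-05) and by 2.04 over the mean of its 3 probe sets, Ivd, of leucine breakdown, rose by 0.81, and Bckdhb fell by 0.61, a call lost without EGFP-negative replicate 2 (adjusted p = 0.063).

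Of 11 arginine and polyamine genes 3 fell and 2 rose. The arginases split: Arg1, the cytosolic form, fell from 11.46 ± 0.02 to 8.24 ± 0.27 (SD, n = 3; -3.22, limma adjusted p = 4.1e-05), and Arg2, the mitochondrial form, rose from 9.24 ± 0.08 to 11.50 ± 0.03 (2.26, adjusted p = 2.4e-05). Srm, the spermidine synthase, fell by 2.47. Ass1, which makes the precursor of arginine, rose by 1.05, a call lost without any 1 EGFP-negative array (adjusted p 0.085 to 0.097) or EGFP-positive replicate 1 (0.051). Of 9 genes of cystine and glutathione supply 2 rose, Chac2, a glutathione-degrading enzyme (2.21, adjusted p = 0.00011), and Gclm, a subunit of the enzyme that limits glutathione synthesis (1.22), and 1 fell, Cth, which makes cysteine (at least 5.86-fold lower, limma adjusted p = 0.0097).

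**Figure D4:**
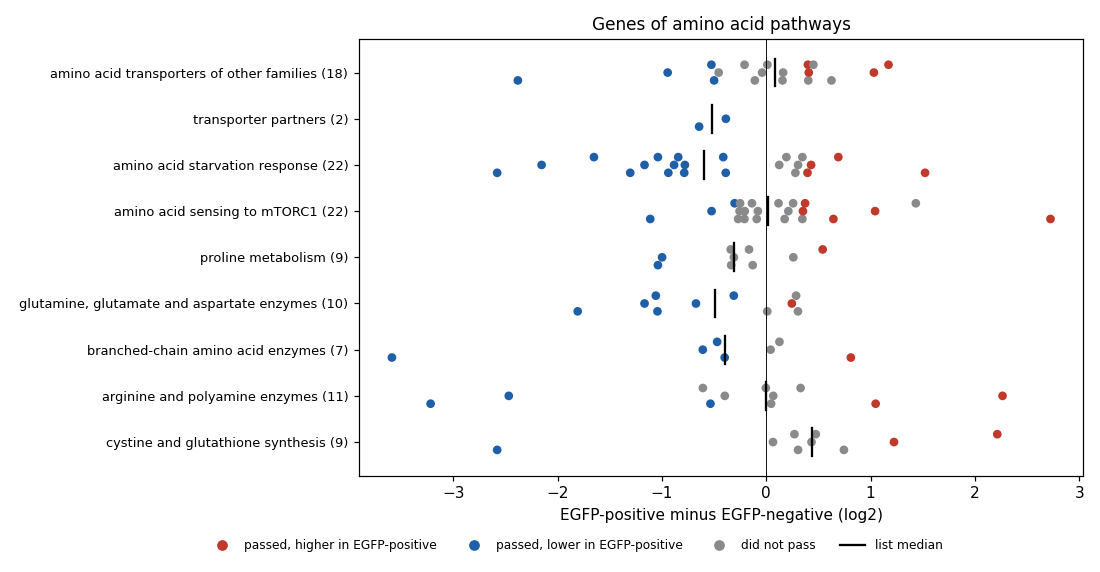
Log2 difference, EGFP-positive minus EGFP-negative, of each measured gene (points) in 9 lists of amino acid genes, with the number measured in brackets; red and blue passed the test over all genes, and black bars are list medians. The starvation response list has 13 blue and 4 red points around a median of -0.60, and the mTORC1 list 5 red and 3 blue around 0.018.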

How the data were processed

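RNA of 6 sorted samples was hybridised to 1 Affymetrix array each after amplification primed at the 3' end, per the labels. The values deposited by the authors are log2 expression per probe set from RMA, per the submitters' processing notes; its quantile step hides a change in total RNA per cell. The RMA version and genome build are not given in the sources used here.

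Of 45037 non-control probe sets, 34945 had 1 gene in GEO's platform annotation, giving 18192 genes, 932 had several and 9160 none. Entrez identifiers were looked up in RefSeq (GRCm38.p6), and 0 symbols changed. Groups came from the sample titles. limma 3.58.1 (R 4.3.3; lmFit and eBayes, two-sided, no covariate, no filter on dim values) was run on all genes at once, with Benjamini-Hochberg adjustment over all of them. For folds, arrays of the dimmer group under the highest bacterial poly-A control were set to it ("at least"). The fit was also run on simulated data with independent noise and few changed genes. That setting differs from these data, in which many genes passed, so it cannot check the calls given here.

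The transporter genes, lists and alternatives were chosen with earlier results of these data known. Values on every array are given for transporter genes that passed with a fitted difference of at least 1 in size and a brighter group above the limit, and for Slc3a1 and Slc3a2; from each list up to 2 rises and 2 falls, smallest p first, are named. Atf4 and further markers were named, and the promoters to print were picked, with values and matches in view. Alternatives changed the normalization, the filter, the variance model, the probe set and the arrays used. Transporter genes lacking a probe set of their own, and protein sequences, were not analysed here. Precision is limited by 3 arrays a group.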

Additional observations from a re-analysis of the deposited data

How the results depend on the processing

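Under 16 alternatives, 10 that change the processing and 6 that leave out 1 array, 18 of the 25 transporter genes that passed kept their call and direction wherever they were tested: Slc1a4, Slc1a5, Slc36a1, Slc38a6, Slc38a9, Slc3a2, Slc43a1, Slc6a3, Slc6a4, Slc6a9, Slc6a13, Slc6a20a, Slc7a1, Slc7a2, Slc7a3, Slc7a5, Slc7a8 and Slc7a11. The number of genes called, 6045 over the table, ran from 4432 to 5664 with 1 array left out, and the transporter genes from 11 to 12 higher and 9 to 11 lower. The median difference of the transporter genes, 0.028, was -0.035 with brighter genes only, 0.091 with the mean of all probe sets and 0.17 with the most variable probe set, and -0.011 to 0.071 with 1 array left out. Among transporter genes with a value past the threshold and Rptor, directions turned for Slc38a2 (0.45 with the mean of all probe sets and 0.80 with the most variable one, from -0.08), Slc7a4 (0.03, and -0.38 without EGFP-positive replicate 3 and 0.25 leaving out EGFP-positive replicate 2, the lowest and highest) and Rptor (0.31 with the most variable probe set, from -0.52). A further 14 transporter genes changed sign under an alternative with no value past the threshold: Slc1a2, Slc1a3, Slc36a3, Slc38a1, Slc38a3, Slc38a4, Slc3a1, Slc6a5, Slc6a7, Slc6a16, Slc6a19os, Slc6a21, Slc7a10 and Slc7a13. Of these, Slc38a1 and Slc6a16 turned with further quantile normalization and Slc1a3 and Slc38a4 with a shift to the same median. Other scalings moved the median of all genes by under 0.1. Same-numbered arrays did not deviate together (r of 0.012, -0.011 and 0.002). This cannot show whether same-numbered samples came from the same culture or sort, because a shared origin need not leave a shared deviation. With the replicate number as a block, 4900 genes, 13 transporter genes as higher and 10 as lower passed, and Slc7a7 (adjusted p = 0.12), Slc36a4 (0.060), Glul (0.125), Aldh4a1 (0.057) and Bckdhb (0.057) did not. With the most variable probe set of each gene, Slc38a10 (adjusted p = 0.064) and Slc43a2 (0.057) did not pass. Slc38a7 (0.069) and Slc36a4 (0.052), whose only probe set and difference stayed the same, did not pass either. With brighter genes only Slc6a6 (0.023) and Slc43a3 (0.028) did. The cause of these shifts was not tested. Signals near the bacterial control limit, as for Slc6a4 and Slc1a1, bound what the arrays can show.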
